A study of Homo sapiens with 83 samples.

Results

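The genes described here encode the subunits of the proteasome and the factors that assemble it. They were chosen by name, as every gene whose symbol is PSM followed by a letter from A to G and a number, together with POMP and ADRM1. Of 60237 genes in the table, 50 carried such a symbol, and the 48 that reached a mean of at least 1 TPM (a level divided by transcript length and scaled to the same total in every library) in SHEP or SKNAS were kept. PSMA8 and PSMB11, which encode subunits of the testis and the thymus, stayed below that level. Of the 48 members, 43 are constitutive and 5 belong to the immunoproteasome and its PA28 cap, namely PSMB8, PSMB9, PSMB10, PSME1 and PSME2.

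The 26S proteasome degrades proteins tagged with ubiquitin. Its 20S core stacks rings of alpha subunits (PSMA) around rings of beta subunits (PSMB), and only PSMB5, PSMB6 and PSMB7 among the constitutive beta subunits cut peptide bonds. A 19S cap of ATPases (PSMC) and non-ATPase subunits (PSMD, ADRM1) recognises, unfolds and feeds in the substrate. Under interferon signalling, PSMB8, PSMB9 and PSMB10 take the places of PSMB5, PSMB6 and PSMB7, and the PA28 proteins PSME1 and PSME2 cap the core, which changes the peptides made for antigen presentation. Dedicated chaperones build these particles. PSMG1 to PSMG4 help to form the alpha ring, POMP completes the core, and PSMD5, PSMD9 and PSMD10 assist the ATPase ring.

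Polyadenylated RNA was sequenced from SHEP and SKNAS, human neuroblastoma cell lines, both engineered to overexpress N-MYC-ER, an N-MYC protein fused to an estrogen receptor domain that stays inactive until 4-hydroxytamoxifen (4OHT) is given. MYC-ON cells received 4OHT and MYC-OFF cells its ethanol vehicle, and all cells had their clocks synchronised with dexamethasone and were kept in DMEM with 10% FBS. RNA was taken every 4 h from circadian time (CT, hours after dexamethasone) 24 to CT76, which gave 28 libraries per condition in SHEP (2 time series of 14 CTs) and, in SKNAS, 14 MYC-OFF and 13 MYC-ON libraries (1 series, MYC-ON ending at CT72). Each line is a single engineered population, and no 4OHT-treated cells without the fusion were among these libraries, so effects of 4OHT itself and of N-MYC-ER activation cannot be told apart.

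The deposited TPM keep no read depth, and the study gives reads per sample only as an average, so the depth of each single library is unknown. In SHEP the median level of a library, taken over expressed genes on the log2 scale, was 4.10 ± 0.049 (SD, n = 28) without and 4.04 ± 0.059 (SD, n = 28) with 4OHT. In SKNAS it was 3.92 ± 0.52 (SD, n = 14) and 3.52 ± 0.48 (SD, n = 13), and 3 MYC-OFF and 4 MYC-ON libraries lay under 3.3. SKNAS values are therefore given without these libraries too where a call depends on them. The 6 mesenchymal neuroblastoma markers, VIM among them, summed to 3146 to 5180 TPM in SHEP and 662 to 2597 TPM in SKNAS libraries. The 6 adrenergic markers summed to 27.1 to 54.2 TPM in SHEP, 106 to 293 TPM in SKNAS MYC-OFF and 38.2 to 152 TPM in SKNAS MYC-ON, with 2 or 3 of the 6 at a mean of 1 TPM or more in each group.

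All 48 members were tested with limma on log2(TPM + 1). A call needed a p of 0.05 or less after Benjamini-Hochberg adjustment over all genes tested, and a log2 difference of 0.15 or more in either direction. In SHEP 22 members rose in MYC-ON (45.8% of members) and 7 fell (14.6%), against 33% and 38.9% of the 14362 genes tested. The median log2 difference was 0.11 over the members and -0.04 over all genes. With each series' mean as the only replicate, 14 members rose (29.2%) and 5 fell (10.4%), against 24% and 28.5% of genes. In SKNAS 10 members rose (20.8%) and 3 fell (6.25%), against 13.7% and 34.4% of 13886 genes, and the median was 0.05 over the members and -0.29 over all genes. Rescaling each SKNAS library by the median of its gene ratios moved the median of all genes to 0.03, and 24 members (50%, against 27.6% of genes) then rose and none fell (against 23.9% of genes; 30 of 48 members had an unadjusted p under 0.05 in limma). Over all called SKNAS genes the share that rose went from 28.5% to 53.6% under that rescaling.

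**Figure D1:**
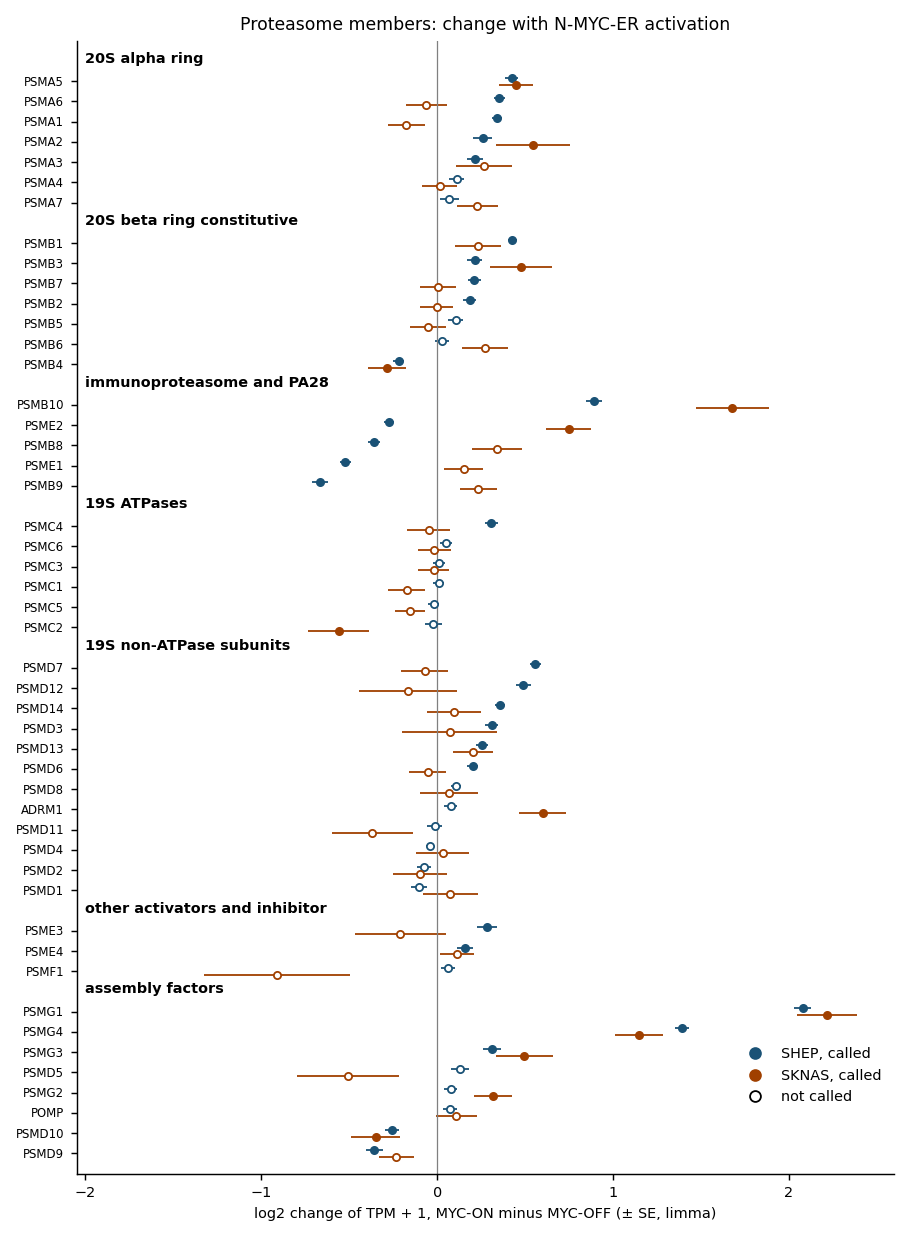
The log2 difference MYC-ON minus MYC-OFF of each of the 48 members, on log2(TPM + 1), in SHEP (56 libraries) and SKNAS (27 libraries), ordered by role. Points are limma estimates with bars of 1 SE, filled where called. PSMG1 (2.08 and 2.22), PSMG4 (1.39 and 1.15) and PSMB10 (0.89 and 1.68) stand furthest to the right in both lines, and PSMB9 (-0.67) is lowest in SHEP.

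Summed over the 48 members, the level averaged 8192 ± 291 TPM (SD, n = 28) in SHEP MYC-OFF. In MYC-ON it averaged 9169 ± 690 TPM (SD, n = 28). In SKNAS the sums were 9929 ± 971 (SD, n = 14) and 11445 ± 816 (SD, n = 13). The members thus held 0.819% of all TPM in SHEP MYC-OFF and 0.917% in MYC-ON, and 0.993% and 1.14% in SKNAS. These SKNAS values include the low-median libraries, where members stood apart in both directions. In MYC-OFF, PSMA2 ran from 650 to 819 TPM there against 208 to 495 TPM in the other libraries. PSMD2 ran from 110 to 177 TPM there against 297 to 394 TPM. The part of these libraries in the sums was not tested. Single members spanned a wide range of levels. Among them PSMD5 had the lowest mean in SHEP MYC-OFF, at 25.6 ± 2.98 TPM (SD, n = 28), and PSMB1 the highest, at 454 ± 21.2 TPM (SD, n = 28).

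The chaperone PSMG1 had the largest rise of all 48 members in both lines, and PSMG4 the next largest in SHEP. PSMG1 lies on chromosome 21 (GRCh38, chr21:39174769-39183488, minus strand, protein coding) and PSMG4 on chromosome 6 (chr6:3231403-3303373, plus strand, protein coding). Their proteins act in different chaperone pairs, PSMG1 with PSMG2 and PSMG3 with PSMG4. The RefSeq promoters of PSMG1 and PSMG4, from 250 bases before to 50 after the start of transcription, are shown so that their letters can be read beside the values. Capitals mark matches, on either strand, to 4 motifs searched, the antioxidant response element TGACNNNGC, the interferon response element GAAANNGAA, the E-box CACGTG and the gamma-activated site TTCNNNGAA. The PSMG1 window held 1 antioxidant response element and the PSMG4 window 1 interferon response element, and neither held a CACGTG.
PSMG1 promoter, chr21:39183402-39183701, minus strand, GRCh38.p14: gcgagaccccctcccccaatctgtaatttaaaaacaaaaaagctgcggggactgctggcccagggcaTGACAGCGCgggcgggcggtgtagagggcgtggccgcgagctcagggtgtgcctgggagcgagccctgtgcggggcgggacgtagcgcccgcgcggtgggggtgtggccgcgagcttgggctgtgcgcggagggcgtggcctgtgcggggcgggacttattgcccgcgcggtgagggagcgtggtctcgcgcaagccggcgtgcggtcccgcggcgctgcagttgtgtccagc
PSMG4 promoter, chr6:3258697-3258996, plus strand, GRCh38.p14: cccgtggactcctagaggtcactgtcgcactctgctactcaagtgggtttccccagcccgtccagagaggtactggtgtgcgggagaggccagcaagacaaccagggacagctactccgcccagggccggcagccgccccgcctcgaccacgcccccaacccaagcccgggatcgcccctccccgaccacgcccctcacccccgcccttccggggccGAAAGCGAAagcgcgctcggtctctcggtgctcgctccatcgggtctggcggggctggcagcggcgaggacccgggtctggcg

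PSMG1 ran from 50.4 to 74.7 TPM (median 63.6) in the 28 SHEP MYC-OFF libraries and from 214 to 394 TPM (median 265) in the 28 MYC-ON libraries. The groups did not overlap. Its log2 difference was 2.08 (SE 0.049, limma adjusted p 3.68e-35), and MYC-ON was higher in 28 of 28 pairs of the same series and CT. In SKNAS, PSMG1 ran from 94.2 to 433 TPM (median 116) in MYC-OFF and from 442 to 824 TPM (median 670) in MYC-ON, again without overlap. The highest MYC-OFF value came from CT56, a low-median library (2.97), next to 225 TPM at CT52 (library median 3.62). The log2 difference in SKNAS was 2.22 (SE 0.17, limma adjusted p 1.15e-07), higher in 13 of 13 pairs. The MYC effect on PSMG1 did not pass the test of a difference between lines (0.14, SE 0.13, limma adjusted p 0.37).

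PSMG4 ran from 39.0 to 59.4 TPM (median 46.5) in SHEP MYC-OFF and from 100.6 to 144 TPM (median 127) in MYC-ON. In SKNAS it ran from 50.5 to 99.2 TPM (median 70.3) and from 103 to 226 TPM (median 162). In both lines every MYC-ON library lay above every MYC-OFF library. The log2 difference was 1.39 (SE 0.041, limma adjusted p 2.07e-31) in SHEP and 1.15 (SE 0.14, limma adjusted p 7.67e-06) in SKNAS. Exons of PSMG4 share 174 bases with TUBB2B on the opposite strand (8.83 TPM in SHEP and 112 TPM in SKNAS) and 1388 bases with SLC22A23. The use of strand in quantification is not given in the sources used here, so reads in those bases cannot be told apart.

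The partners of these chaperones had smaller log2 differences, though the difference between partners was not tested. PSMG2, the partner of PSMG1, had medians of 70.7 and 74.5 TPM in SHEP, with ranges that overlapped (57.2 to 79.7 and 57.5 to 92.1 TPM), and a log2 difference of 0.08 (SE 0.036, limma adjusted p 0.0512). In SKNAS PSMG2 rose by 0.32 (SE 0.11, limma adjusted p 0.024), from a median of 71.0 to 92.1 TPM, also with overlap. PSMG3, the partner of PSMG4, rose in SHEP by 0.31 (SE 0.050, limma adjusted p 3.99e-07), from 42.03 to 61.2 TPM (median 49.4) in MYC-OFF to 39.6 to 86.0 TPM (median 63.5) in MYC-ON. In SKNAS PSMG3 rose by 0.50 (SE 0.16, limma adjusted p 0.0199), from a median of 144 to 234 TPM. Neither PSMG2 nor PSMG3 stayed called in SKNAS with the library median as a covariate.

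POMP, which binds the half-built core until it is complete, had medians of 157 and 173 TPM in SHEP and 107 and 131 TPM in SKNAS. Its groups overlapped in both lines, and its log2 difference was 0.07 (limma adjusted p 0.0748) and 0.11 (limma adjusted p 0.461). Among the ATPase ring chaperones 2 fell in SHEP. PSMD9 went from 74.3 to 97.9 TPM (median 82.04) to 45.3 to 85.4 TPM (median 65.8), a log2 difference of -0.36 (SE 0.047, limma adjusted p 4.51e-09). PSMD10 fell by 0.26 in SHEP (limma adjusted p 3.61e-07) and was lower in 28 of 28 pairs. In SKNAS PSMD10 fell by 0.35 (SE 0.14, limma adjusted p 0.0494), from a median of 75.6 to 57.5 TPM, and was not called with a pseudocount of 0.1 (limma adjusted p 0.0563), without the filter on low values (0.0691), with the library median as a covariate (-0.10, limma adjusted p 0.413) or without the low-median libraries (-0.28, limma adjusted p 0.0575). Under rescaling it was 0.02 (limma adjusted p 0.882). Among the 8 assembly factors, 3 rose and 2 fell in SHEP, and 4 rose and 1 fell in SKNAS. The shares of all genes that rose and fell were 33% and 38.9% in SHEP, and 13.7% and 34.4% in SKNAS.

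**Figure D2:**
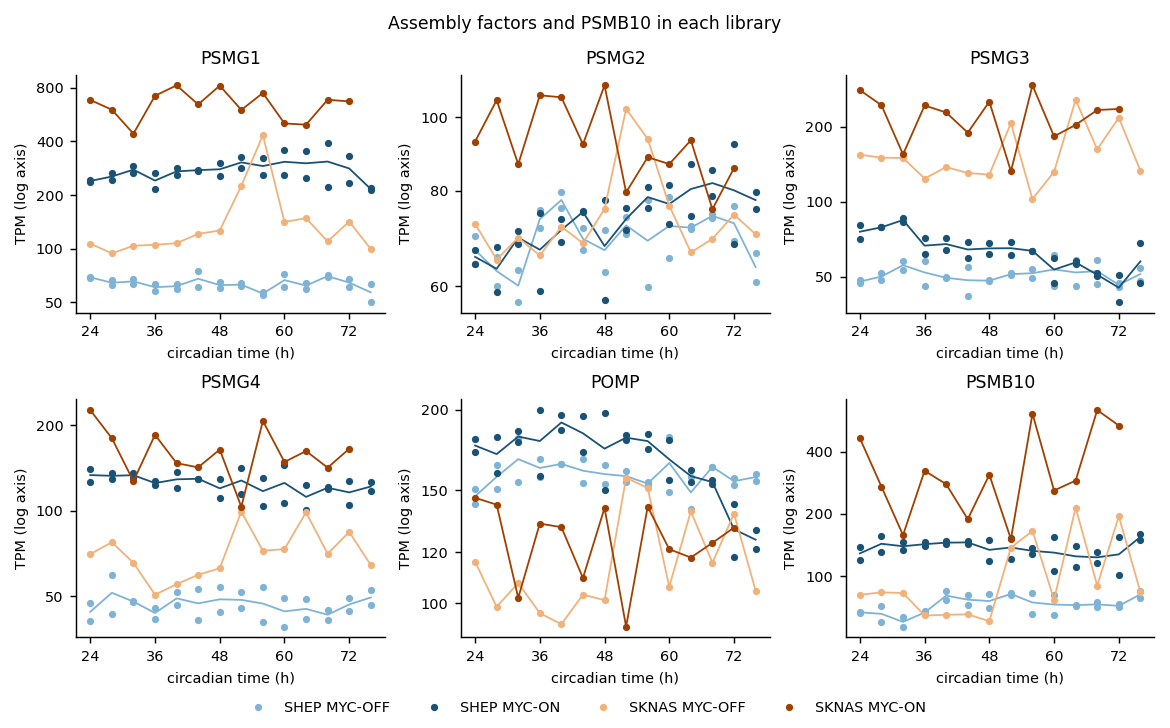
TPM of PSMG1, PSMG2, PSMG3, PSMG4, POMP and PSMB10 (log axis) against CT in hours in SHEP and SKNAS. Points are single libraries and lines join the mean at each CT for MYC-OFF and MYC-ON. PSMG1 and PSMG4 were separated at every CT in both lines, while PSMG2 and POMP overlapped. The SKNAS MYC-OFF point at CT56 (433 TPM), from a library with a median under 3.3, is the highest MYC-OFF value of PSMG1.

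In the 20S core, small rises were spread over many subunits in SHEP, where 33% of all genes tested rose and 38.9% fell. Of the 7 alpha subunits, 5 rose and none fell, with estimates from 0.07 (PSMA7) to 0.42 (PSMA5). Of the 7 constitutive beta subunits, 4 rose and 1 fell, over a range from -0.22 (PSMB4) to 0.43 (PSMB1). PSMB1, a structural beta subunit, ran from 420 to 517 TPM in MYC-OFF and from 524 to 676 TPM in MYC-ON, so its groups did not overlap. In SHEP 5 members had every MYC-ON library above every MYC-OFF library (PSMB1, PSMB10, PSMD7, PSMG1 and PSMG4), where 6.11% of all genes did. None had every MYC-ON library below, where 6.36% of genes did, although 7 members passed the limma test for a fall and 36 of 48 had an unadjusted p under 0.05. In SKNAS PSMG1 and PSMG4 were the only 2 members fully above (2.32% of genes), and none was fully below (2.09% of genes), where 3 passed the limma test for a fall and 17 of 48 had an unadjusted p under 0.05.

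The constitutive catalytic subunits differed little. PSMB5 (chymotrypsin-like activity) ran from 251 to 300.4 TPM (median 274) in SHEP MYC-OFF and from 186 to 366 TPM (median 305) in MYC-ON, and its log2 difference of 0.11 (limma adjusted p 0.0204) was under the 0.15 required. PSMB6 (caspase-like activity) had medians of 208 and 216 TPM and a log2 difference of 0.03 (limma adjusted p 0.504). PSMB7 (trypsin-like activity) rose by 0.21 (limma adjusted p 1.65e-06), from a median of 247 to 290 TPM with overlap. In SKNAS none of these passed, with log2 differences of -0.05, 0.27 and 0.00 for PSMB5, PSMB6 and PSMB7 (limma adjusted p 0.686, 0.101 and 0.973). PSMB4, a structural subunit, fell in both lines, by 0.22 in SHEP (limma adjusted p 4.82e-08) and by 0.28 in SKNAS (SE 0.11, limma adjusted p 0.0421, median 863 to 754 TPM). The SKNAS fall of PSMB4 was not called without the low-median libraries, and its sign turned under rescaling (0.09).

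In the 19S cap, 1 of 6 ATPases (PSMC4, by 0.31) and 6 of 12 non-ATPase subunits rose in SHEP, and none fell. Of all genes tested there, 33% rose and 38.9% fell. PSMD7, which pairs with the deubiquitinase PSMD14, ran from 142 to 176 TPM (median 159) in MYC-OFF and from 206 to 289 TPM (median 231) in MYC-ON. Its groups did not overlap, with a log2 difference of 0.56 (SE 0.031, limma adjusted p 9.32e-21). PSMD12, a lid scaffold subunit, rose by 0.49 (SE 0.041, limma adjusted p 8.18e-15), from a median of 118 to 173 TPM. The same subunits gave -0.07 (limma adjusted p 0.68) and -0.16 (limma adjusted p 0.645) in SKNAS, and both values turned positive under rescaling and with the library median as a covariate. PSMD7 was called higher in SKNAS under rescaling (0.30, limma adjusted p 0.0444) and not with the covariate (0.11, limma adjusted p 0.45). PSMD12 was called higher with the covariate (0.50, limma adjusted p 0.00546) and not under rescaling (0.20, limma adjusted p 0.297). In SKNAS ADRM1, a ubiquitin receptor, was the 1 non-ATPase subunit that rose, by 0.60 (SE 0.13, limma adjusted p 0.00179; 0.97 under rescaling), from 57.7 to 172 TPM (median 151) to 110 to 260 TPM (median 233), whereas in SHEP its log2 difference was 0.08 (limma adjusted p 0.0441). Exons of ADRM1 share 244 bases with LAMA5 on the opposite strand, which averaged 5.50 TPM in SHEP and 90.7 TPM in SKNAS. PSMC2, an ATPase, fell in SKNAS by 0.56 (SE 0.17, limma adjusted p 0.0154), from a median of 119 to 77.0 TPM, and lost its call under rescaling (-0.19), with the library median as a covariate (-0.19) and without the low-median libraries (-0.44). Exons of PSMC2 share 112 bases with PMPCB on the same strand. Among the PSME3 and PSME4 activators and the inhibitor PSMF1, 2 rose in SHEP and none passed in SKNAS, where PSMF1 gave -0.91 (SE 0.42, limma adjusted p 0.0823).

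Of the 5 immunoproteasome and PA28 genes, 4 fell and 1 rose in SHEP, while 21 of 43 constitutive members rose and 3 fell. Of all genes tested in SHEP, 38.9% fell and 33% rose. PSMB9 (chr6:32844136-32859851, plus strand) ran from 59.4 to 109 TPM (median 83.6) in SHEP MYC-OFF and from 33.0 to 72.8 TPM (median 55.2) in MYC-ON, a log2 difference of -0.67 (SE 0.046, limma adjusted p 1.31e-17). PSME1 (chr14:24136163-24138967, plus strand) fell by 0.52 (SE 0.031, limma adjusted p 5.15e-20), from 234 to 330 TPM (median 283) to 159 to 238 TPM (median 195). Both overlapped at the edges of their ranges, but every pair of the same series and CT was lower in MYC-ON. PSMB8 (chr6:32840717-32844679, minus strand) fell by 0.36 (SE 0.034, limma adjusted p 3.72e-13), from a median of 111 to 87.7 TPM. PSME2 (chr14:24143362-24147570, minus strand) fell by 0.27 (SE 0.029, limma adjusted p 1.85e-11), from a median of 280 to 231 TPM, and these genes too were lower in 28 of 28 pairs. PSMB8 and PSMB9 share 139 exonic bases on opposite strands, and PSME2 shares 216 with RNF31 (28.5 TPM in SHEP and 42.6 TPM in SKNAS), so a part of their reads cannot be told apart.

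PSMB10 (chr16:67934506-67936864, minus strand) was the exception. It ran from 57.0 to 85.0 TPM (median 72.3) in SHEP MYC-OFF and from 100.8 to 160 TPM (median 139) in MYC-ON, with no overlap and a log2 difference of 0.89 (SE 0.044, limma adjusted p 7.9e-23). In SKNAS it ran from 60.4 to 215 TPM (median 83.1) in MYC-OFF and from 151 to 636 TPM (median 290) in MYC-ON, higher in 13 of 13 pairs though the ranges overlapped. The SKNAS difference was 1.68 (SE 0.21, limma adjusted p 1.23e-05). Libraries with a low median held the highest values in each condition, at 165 to 215 TPM (3 libraries) against 60.4 to 137 TPM (11) in MYC-OFF and at 465 to 636 TPM (4) against 151 to 324 TPM (9) in MYC-ON. Without those libraries the difference was 1.59, and with the library median as a covariate 1.18, both called. A same-strand gene with no symbol, ENSG00000261884, shares 640 exonic bases with PSMB10 and averaged 8.84 TPM in SHEP and 14.8 TPM in SKNAS.

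**Figure D3:**
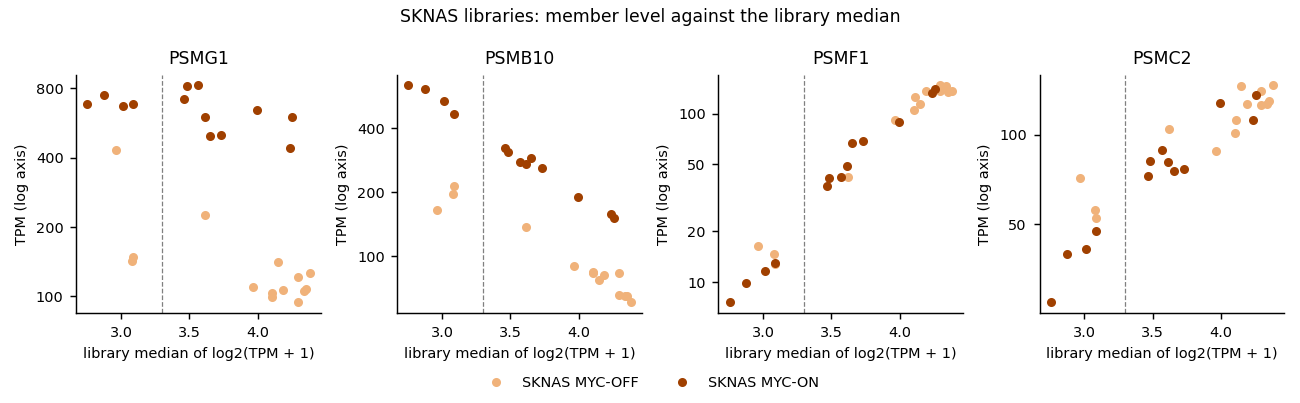
TPM of PSMG1, PSMB10, PSMF1 and PSMC2 in each SKNAS library against the library's median log2 level, for MYC-OFF and MYC-ON, with a dashed line at 3.3. For PSMB10 the 3 MYC-OFF libraries left of the line (165 to 215 TPM) and the 4 MYC-ON libraries left of it (465 to 636 TPM) lie above the rest of their condition.

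In SKNAS none of the 5 fell, where 34.4% of all genes tested did. PSME2 rose by 0.75 (SE 0.13, limma adjusted p 0.000239), from 209 to 490 TPM (median 270) to 322 to 641 TPM (median 490), and was higher in 12 of 13 pairs, with 0.50 when the library median was a covariate. PSMB8, PSMB9 and PSME1 gave 0.34, 0.23 and 0.15 (limma adjusted p 0.0582, 0.0791 and 0.267), with medians of 71.7 and 102 TPM, 78.5 and 95.4 TPM, and 206 and 240 TPM. Under rescaling PSMB8 (0.71) and PSMB9 (0.60) were called higher, and with the library median as a covariate PSME1 gave -0.03. The summed level of all 5 ran from 706 to 945 TPM (median 831) in SHEP MYC-OFF and from 629 to 780 TPM (median 698) in MYC-ON, but from 587 to 1118 TPM (median 700) and from 793 to 1825 TPM (median 1255) in SKNAS. These SKNAS sums include the low-median libraries. There PSME2 ran from 366 to 490 TPM against 209 to 362 TPM in the other libraries in MYC-OFF. In MYC-ON it ran from 563 to 641 TPM against 322 to 511 TPM. The ranges of PSME1 and PSMB9 overlapped between these sets of libraries in both conditions.

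The difference between lines was itself tested as an interaction over all 83 libraries, which shares its libraries with both comparisons above. The fit gave each gene a single spread for both lines, although library medians varied more in SKNAS. Its SE can therefore fall below that of SKNAS alone, and its p-values can be too small. In the interaction 8 members had a more positive MYC effect in SKNAS (16.7%) and 16 a more negative one (33.3%), against 13.4% and 38.1% of 14870 genes. Rescaling turned these counts into 19 (39.6%, against 25.6% of genes) and 5 (10.4%, against 24.6%). Leaving out SHEP series 1 or series 2 left 5 (10.4%) or 6 (12.5%) on the negative side, against 22.5% of genes each time. All 5 immunoproteasome and PA28 genes were among the positive ones, with 0.70 for PSMB8, 0.90 for PSMB9, 0.79 for PSMB10, 0.67 for PSME1 and 1.02 for PSME2, and 3 of 43 constitutive members. These 5 calls held under rescaling, with the library median as a covariate, without the low-median libraries and without either SHEP series, though PSMB10 went down to 0.38 with the covariate. PTPRC, a pan-leukocyte marker, averaged 80.4 TPM in SKNAS MYC-OFF and 21.5 TPM in MYC-ON. The summed immune markers (6 genes) ran from 86.5 to 312 TPM and from 26.8 to 136 TPM there, and from 33.4 to 65.6 TPM and from 13.99 to 54.0 TPM in SHEP, with CD3E at or near 0. Only 2 of the 6 reached a mean of 1 TPM in each SKNAS group, and 1 in each SHEP group. In SKNAS, PTPRC was lower in MYC-ON in 11 of 13 pairs and CD68 in 13, while CD14 was higher in 7 and lower in 5. The part of these markers in the result was not tested. Both lines are cultured cell lines, so a marker's name does not show that leukocytes were present. Bulk RNA cannot tell fewer expressing cells from less RNA per cell.

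Each immune catalytic subunit was also divided by the subunit it replaces, within a library, so that the ratio does not depend on the library's scaling. The ratios were compared over pairs of the same series and CT by a two-sided sign-flip permutation test, exact over 13 pairs in SKNAS and with 100000 resamples over 28 pairs in SHEP, adjusted over 6 tests. PSMB10/PSMB7 rose in both lines, from a median of 0.309 to 0.471 in SHEP (log2 difference 0.69, SE 0.035, permutation adjusted p 2e-05) and from 0.270 to 0.899 in SKNAS (1.68, SE 0.18, exact permutation adjusted p 0.000366). PSMB8/PSMB5 fell in SHEP, from 0.408 to 0.286 (-0.47, SE 0.024, permutation adjusted p 2e-05), and rose in SKNAS, from 0.229 to 0.301 (0.40, SE 0.097, exact permutation adjusted p 0.00146, higher in 12 of 13 pairs). PSMB9/PSMB6 fell in SHEP, from 0.415 to 0.254 (-0.71, SE 0.043, permutation adjusted p 2e-05), and did not pass in SKNAS (medians 0.191 and 0.1999, log2 difference -0.04, SE 0.077, exact permutation adjusted p 0.65, higher in 5 of 13 pairs). A ratio can still move with the library median where its genes shift unequally. Without the low-median libraries the SKNAS difference was 0.33 for PSMB8/PSMB5 and 1.54 for PSMB10/PSMB7, each higher in 8 of 8 pairs. For PSMB9/PSMB6 it was 0.0016, higher in 3 of 8. All 28 SHEP pairs moved one way in each ratio. The SHEP p-values are from the smallest that the resampling can give (1e-05 before adjustment).

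**Figure D4:**
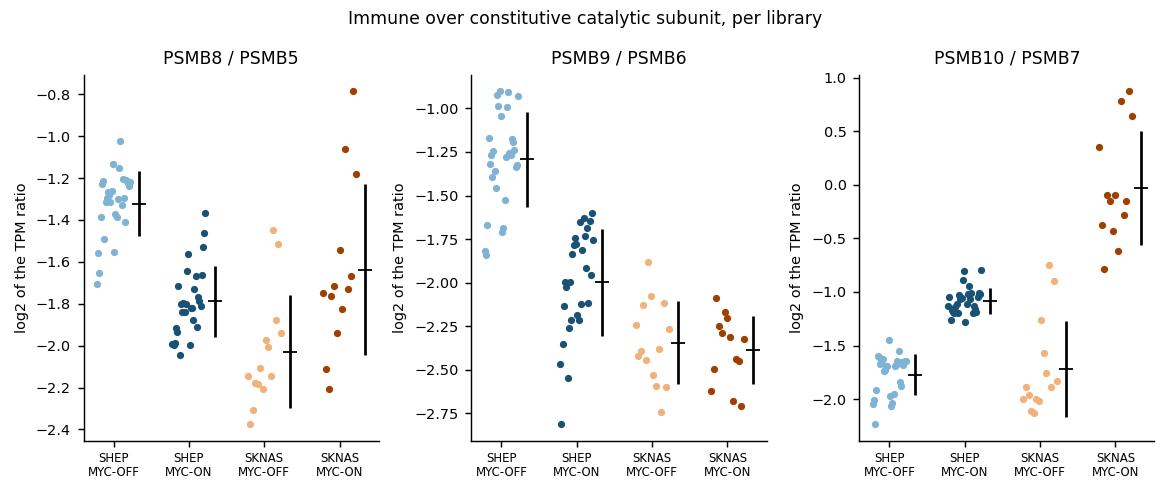
Log2 TPM ratio of each immune catalytic subunit to the constitutive subunit it replaces, in SHEP and SKNAS, MYC-OFF and MYC-ON. Points are libraries and black bars are the mean ± SD. PSMB10/PSMB7 is higher in MYC-ON in both lines (SHEP means -1.77 and -1.08, SKNAS means -1.72 and -0.03), while PSMB8/PSMB5 and PSMB9/PSMB6 are lower in MYC-ON in SHEP.

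Promoter windows of 300 bases (RefSeq, GRCh38.p14) were at hand for 42 of 48 members, 52 windows in all, among 35116 windows of all genes, and the letters below were searched on both strands. The interferon response element GAAANNGAA was in 9 of 42 members (17.3% of member windows against 8.11% of all), the gamma-activated site TTCNNNGAA in 7 (13.5% against 7.66%), the antioxidant response element TGACNNNGC in 16 (32.7% against 13.3%) and the E-box CACGTG, which MYC proteins bind, in 3 (5.77% against 7.26%; PSMB3, PSMD9 and PSME3). The exact letters GAAAGCGAA, looked at after the matches were seen, stood in PSMB8, PSMB10, PSME1, PSME2 and PSMG4 and in 0.268% of all windows (94). In no member window did matches to 2 of the motifs overlap. The PSMB9 window holds no GAAANNGAA match. Of the 5 members with the letters GAAAGCGAA, PSMB8, PSME1 and PSME2 fell in SHEP while PSMB10 and PSMG4 rose. In SKNAS PSMB10, PSMG4 and PSME2 rose, and PSMB8 and PSME1 had positive estimates that were not called. The part of these letters in the changes was not tested. The windows are printed to show where these letters stand, with matches to any of the 4 motifs in capitals, and the PSMB8 window is that of 1 of its 2 listed starts. Read on the other strand, GAAAGCGAA appears as TTCGCTTTC.
PSMB10 promoter, chr16:67936801-67937100, minus strand, GRCh38.p14: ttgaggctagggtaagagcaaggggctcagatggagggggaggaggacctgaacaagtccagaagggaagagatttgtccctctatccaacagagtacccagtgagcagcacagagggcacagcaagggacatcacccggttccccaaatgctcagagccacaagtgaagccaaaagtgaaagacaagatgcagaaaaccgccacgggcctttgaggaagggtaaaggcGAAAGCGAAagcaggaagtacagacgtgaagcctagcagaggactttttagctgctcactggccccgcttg
PSMB8 promoter, chr6:32843998-32844297, minus strand, GRCh38.p14: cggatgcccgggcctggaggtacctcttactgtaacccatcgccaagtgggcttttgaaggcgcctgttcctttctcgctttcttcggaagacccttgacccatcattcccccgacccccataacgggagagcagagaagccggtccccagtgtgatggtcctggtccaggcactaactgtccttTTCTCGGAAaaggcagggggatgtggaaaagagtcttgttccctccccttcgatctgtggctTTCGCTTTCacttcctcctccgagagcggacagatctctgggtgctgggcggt
PSME1 promoter, chr14:24135944-24136243, plus strand, GRCh38.p14: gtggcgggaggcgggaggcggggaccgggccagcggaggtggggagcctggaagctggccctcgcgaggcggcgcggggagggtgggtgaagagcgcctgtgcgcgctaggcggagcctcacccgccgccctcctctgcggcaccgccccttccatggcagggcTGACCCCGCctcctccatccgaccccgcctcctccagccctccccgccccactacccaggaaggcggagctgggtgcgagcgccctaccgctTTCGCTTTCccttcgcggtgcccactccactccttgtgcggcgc
PSME2 promoter, chr14:24146561-24146860, minus strand, GRCh38.p14: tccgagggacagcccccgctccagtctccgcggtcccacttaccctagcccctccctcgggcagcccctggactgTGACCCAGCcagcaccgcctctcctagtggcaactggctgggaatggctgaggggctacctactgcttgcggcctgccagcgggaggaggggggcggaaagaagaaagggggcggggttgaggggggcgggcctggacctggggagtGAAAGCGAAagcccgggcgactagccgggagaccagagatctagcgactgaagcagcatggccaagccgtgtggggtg

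Levels also differed between the lines. In MYC-OFF 22 members were higher in SKNAS (45.8%) and 14 lower (29.2%), against 32.1% and 46.4% of all genes tested, and in MYC-ON 22 were higher (45.8%) and 16 lower (33.3%), against 26% and 58.3%. Rescaling gave 28 higher (58.3%) and 7 lower (14.6%) in MYC-OFF, against 38.9% and 43.2% of genes, and 33 higher (68.8%) and 8 lower (16.7%) in MYC-ON, against 40.1% and 44.4%. Each line is 1 population with its own series, so line and series cannot be told apart. PSMG3 was 1.57 higher in SKNAS MYC-OFF and 1.75 higher in MYC-ON on the log2 scale, and PSMG1 was 1.06 and 1.21 higher. PSMB4 was 1.13 and 1.06 higher, and PSMB6 0.95 and 1.22 higher. POMP was lower in SKNAS, at -0.46 in MYC-OFF and -0.45 in MYC-ON, the latter turning to 0.06 under rescaling. Of the immunoproteasome and PA28 genes, 1 was higher and 2 lower in SKNAS MYC-OFF (PSMB10 0.39, PSMB8 -0.44, PSME1 -0.38), while all 5 were higher in SKNAS MYC-ON, from 0.26 (PSMB8) to 1.21 (PSMB10). With the library median as a covariate PSMB8 was lower in SKNAS MYC-ON (-0.25) and PSMB10 was 0.39 higher. Without the low-median libraries PSMB8 in MYC-ON (0.02) and PSMB10 in MYC-OFF (0.12) lost their calls.

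Over the sampled hours, 22 members fell in SHEP MYC-ON and 1 in MYC-OFF. The linear trend, as a log2 change per 24 h with a term for series, was called for 2 rises and 1 fall among members in MYC-OFF (4.17% and 2.08%, against 2.96% and 5.15% of genes) and for 2 rises and 22 falls in MYC-ON (4.17% and 45.8%, against 17.1% and 30.6%). The trends themselves differed for 19 members, all more negative in MYC-ON (39.6%, against 24.7% of genes), and for none in the other direction (14.7% of genes; 31 of 48 had an unadjusted p under 0.05 in limma). Under rescaling 13 members fell in MYC-ON (27.1%) and 9 trends were more negative (18.8%), both near the 23.4% and 20.5% of all genes. Without series 1, 15 members fell (31.2%, against 26.1% of genes) and 11 trends were more negative (22.9%, against 20.5%). Without series 2 these were 25 (52.1%, against 30.5%) and 17 (35.4%, against 18.6%). In MYC-ON 6 of 6 ATPases fell, with 6 of 12 non-ATPase subunits, 5 of 8 assembly factors, 2 of 7 alpha and 2 of 7 constitutive beta subunits and 1 of the 3 other activators and inhibitor. The trend was more negative than in MYC-OFF for 2 of 6 ATPases, 3 of 12 non-ATPase subunits, 4 of 8 assembly factors, 4 of 7 alpha and 3 of 7 beta subunits, 2 of 5 immunoproteasome and PA28 genes and 1 of the 3 others. PSMC5, an ATPase, went from 363 to 244.5 TPM between CT24 and CT76 in MYC-ON series 1 and from 348 to 266 TPM in series 2, against 336 to 312 TPM and 307 to 318 TPM in MYC-OFF. PSMD1, the large scaffold subunit of the 19S base, went from 129 to 67.8 TPM and from 127 to 65.1 TPM in MYC-ON. These genes were chosen after their values were seen.

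Among named members, the trend differed for PSMB5 (-0.23 per 24 h), PSMG3 (-0.32) and POMP (-0.19), all falling in MYC-ON. Without series 2 the difference for PSMB5 was -0.14, under the size required. PSMG3 went from 80.9 TPM at CT24 to 47.2 TPM at CT76 in MYC-ON series 1. In series 2 it went from 70.7 TPM at CT24 to 39.6 TPM at CT72, but was 68.1 TPM at CT76. PSMB9 went the other way in both conditions, with a slope of 0.27 (limma adjusted p 0.000331) in MYC-OFF and 0.25 (limma adjusted p 0.00114) in MYC-ON. Without series 1 neither was called, at 0.22 (limma adjusted p 0.224) and 0.12 (limma adjusted p 0.271), and with the library median as a covariate the MYC-ON slope was 0.20 (limma adjusted p 0.0517). Its level went from 64.2 to 109 TPM and from 59.4 to 109 TPM in the MYC-OFF series, and from 40.1 to 64.3 TPM and from 42.6 to 61.9 TPM in the MYC-ON series. PSMG2 also rose in MYC-ON (0.15), a call lost without series 1 (0.15, limma adjusted p 0.0666). PSME1 rose in MYC-OFF (0.16), a call lost without series 1 (0.12, limma adjusted p 0.222) and with the covariate (0.15, under the size required). PSMG1 had no called trend, at -0.04 in MYC-OFF and 0.05 in MYC-ON. SKNAS, with 1 series, was not fitted for trends. CT runs with the time in culture. In MYC-ON it also runs with the time since N-MYC-ER activation, which the paper places 24 h before dexamethasone. Effects of CT, of time in culture and, in MYC-ON, of time since activation therefore cannot be told apart. This holds for the MYC-ON trends and for the trend differences.

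**Figure D5:**
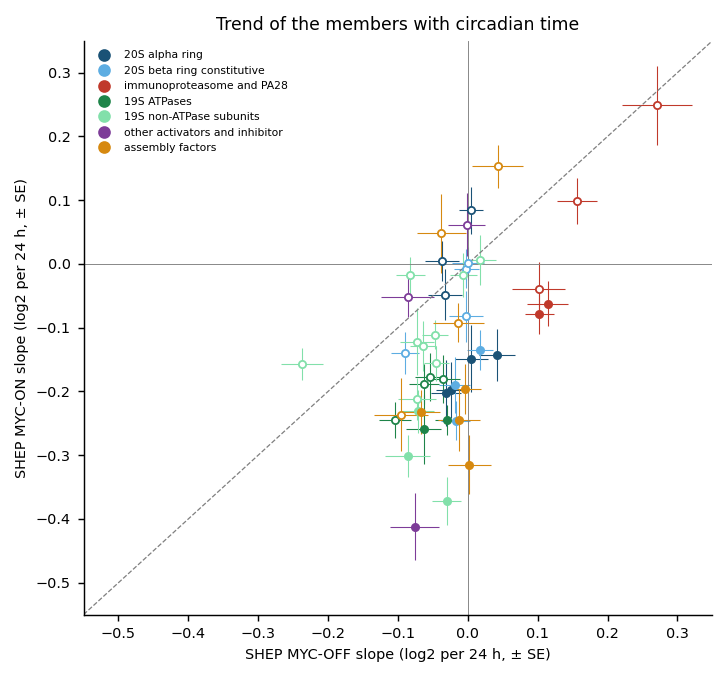
Linear slope per 24 h of each member's log2(TPM + 1) in SHEP MYC-OFF (horizontal axis) against MYC-ON (vertical axis), 28 libraries each. Filled points are the 19 members whose trends differed. The bars are 1 SE. Every filled point lies below the dashed diagonal of equal slopes, and PSMB9, an open point, lies at 0.27 and 0.25.

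No member passed the test for a 24 h rhythm in SHEP, fitted beside the trend. The limma F test called 0 of 48 in MYC-OFF and 0 of 48 in MYC-ON, against 0.0911% and 0.021% of all genes, and 4 and 1 members had an unadjusted p under 0.05. The fitted amplitude of PSMG1 was 0.08 in MYC-OFF (limma adjusted p 0.526) and 0.06 in MYC-ON (limma adjusted p 0.813), and that of PSMB9 was 0.10 and 0.09 (limma adjusted p 0.559 and 0.692).

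Genes that act with the proteasome but fall outside the naming rule were read from fixed lists. Of all genes tested, 33% rose and 38.9% fell in SHEP, and 13.7% rose and 34.4% fell in SKNAS. Of 9 partners, 6 rose and none fell in SHEP, and 1 rose and 1 fell in SKNAS. SEM1, a small 19S lid subunit, rose by 0.31 in SHEP and gave 0.15 (limma adjusted p 0.452) in SKNAS. UCHL5, the deubiquitinase that ADRM1 recruits, rose by 0.71 in SHEP and gave 0.14 (limma adjusted p 0.614) in SKNAS. NFE2L1 encodes NRF1, the factor known to raise proteasome gene transcription when proteasomes are inhibited. It fell by 0.74 in SHEP (limma adjusted p 3.32e-21) and by 1.47 in SKNAS (limma adjusted p 0.00113), or by 0.70 with the library median as a covariate. DDI2, the protease that activates NRF1, rose by 0.85 in SHEP and gave 0.42 (limma adjusted p 0.201) in SKNAS. The 6 genes of that axis split 3 higher and 3 lower in SHEP, and 0 higher and 1 lower in SKNAS.

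Of 10 interferon and antigen processing genes, 8 fell and 1 rose in SHEP, and 6 fell and 1 rose in SKNAS. Among all genes tested, 38.9% fell and 33% rose in SHEP, and 34.4% fell and 13.7% rose in SKNAS. The interferon factors IRF1, IRF9 and STAT2 gave -0.84, -1.31 and -0.99 in SHEP and -1.003, -0.80 and -1.07 in SKNAS, all called, though with the covariate the SKNAS values of IRF1 and STAT2 were -0.41 and -0.69. TAPBP, which helps load peptides, gave -1.18 and -1.01, both called, with -0.44 in SKNAS under the covariate. ERAP1, which trims peptides, gave -0.87 in SHEP and -0.76 (limma adjusted p 0.0539) in SKNAS. Beside them PSMB8, PSMB9, PSME1 and PSME2 fell in SHEP, while none of these fell in SKNAS. Of 6 ubiquitin and E1 genes, 1 fell in each line and none rose. Of 7 ubiquitin shuttle and segregase genes, 2 rose and 4 fell in SHEP and 3 fell in SKNAS.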

How the data were processed

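TPM of 60237 genes in 83 libraries were used, as deposited. The authors quantified poly-A reads with Salmon 1.3.0 against Gencode 35 (GRCh38) and summed transcripts to genes. Each library's values sum to 1000000, so the depth of each single library is unknown and no counting error can be given. Symbols came from Ensembl 101.

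Differences in log2(TPM + 1) were fitted with limma (version 3.58.1, R 4.3.3), with CT as a factor and genes of mean TPM of at least 1 entered. This took the place of the study's count model, since TPM are not counts. Trends and 24 h cosine curves had a term for series. CTs of 1 series served as replicates, so p-values measure the spread between CTs and series of 1 line, and SKNAS had 1 series among the libraries used here. Ratios were tested by sign-flip permutation with numpy 2.4.6 in Python 3.11.15. The scripts were tested on simulated data. Known changes were put into a sample of the more highly expressed genes, among 14362 simulated SHEP genes and 13886 SKNAS genes. Of the log2 rises of 0.5, 94% were recovered in SHEP and 14% in SKNAS, where 44% of rises of 1 were. Noise was drawn separately for each gene and library, so shifts shared by the genes of a library were not simulated. Alternatives were another pseudocount, no filter, rescaling, the library median as a covariate, limma-trend, the replicate block, series means, and leaving out libraries.

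Members and lists were chosen with earlier results of these data known. Values in full went to the immunoproteasome, PA28 and catalytic genes, POMP, PSMG1 to PSMG4, ADRM1 and, in each line, the 5 members called with the largest rise and fall. Members named as the end of a range, for non-overlapping groups or for a trend were chosen after their values were seen. Exon overlaps and positions came from Gencode 44. Of 35 pseudogene entries of members, only PSMC1P1 reached a mean of 1 TPM. Some items are not reported here.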

Additional observations from a re-analysis of the deposited data

Results flagged for a closer look

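Among the named members, 13 had a MYC effect that differed between SKNAS and SHEP by the limma interaction over 83 libraries, on the log2(TPM + 1) scale. That fit gave each gene a single spread for both lines, so its p-values can be too small for SKNAS, whose libraries varied more. The effect was more positive in SKNAS for PSMB8 (0.70, SE 0.096, limma adjusted p 1.37e-08), PSMB9 (0.90, adjusted p 9.14e-13), PSMB10 (0.79, adjusted p 7.16e-06), PSME1 (0.67, adjusted p 3.09e-11) and PSME2 (1.02, adjusted p 9.98e-16). It was also more positive for ADRM1 (0.52, adjusted p 3.07e-06), PSMB6 (0.24, adjusted p 0.0265) and PSMG2 (0.24, adjusted p 0.00949). It was more negative in SKNAS for PSMD12 (-0.65, adjusted p 0.00235), PSMD7 (-0.63, adjusted p 3.77e-08), PSMC2 (-0.54, adjusted p 0.000365), PSMG4 (-0.24, adjusted p 0.035) and PSMB7 (-0.21, adjusted p 0.0232). With the library median as a covariate PSMB6, PSMG2 and PSMD12 lost the call, and rescaling turned the sign of PSMG4 and PSMB7.

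In SHEP, 9 named members had a linear trend over CT that differed between MYC-ON and MYC-OFF, each more negative in MYC-ON by the limma interaction over 56 libraries. The differences per 24 h were -0.32 for PSMG3 (SE 0.055, limma adjusted p 4.55e-06), -0.23 for PSMB5 (adjusted p 3.84e-07), -0.23 for PSMD9 (adjusted p 0.000703) and -0.20 for PSMC2 (adjusted p 0.00618). They were -0.19 for POMP (adjusted p 0.00044), -0.18 for PSME2 (adjusted p 5.95e-05), -0.18 for PSMB8 (adjusted p 0.00111), -0.17 for PSMD10 (adjusted p 0.00132) and -0.15 for PSMB4 (adjusted p 0.000323).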

How the results depend on the processing

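Of 151 recomputed counts and ratios 131 stayed within 1.5 times or on their side of the threshold, 19 moved and 1 reversed. Of 981 recomputed values of named genes 874 kept direction and side, 69 lost a call, 12 gained one and 26 reversed. The causes were not tested. Rescaling gave 24 members higher and 0 lower in SKNAS, where limma had 30 members at an unadjusted p under 0.05, 19 higher and 5 lower in the interaction, 7 lower in SKNAS against SHEP in MYC-OFF and 8 in MYC-ON, 13 falling trends in MYC-ON and 9 negative trend differences. The library median as a covariate left 8 members lower in SKNAS MYC-ON and 1 rising trend in MYC-OFF. Without the low-median libraries no member was lower in SKNAS (0, with 12 members at an unadjusted p under 0.05), and PSMB9/PSMB6 in SKNAS turned to 0.0016. With series means as replicates 14 members rose in SHEP. Leaving out SHEP series 1 or 2 gave 5 to 6 members on the negative side of the interaction, 0 to 2 rising and 1 to 4 falling trends in MYC-OFF, 1 to 2 rising trends in MYC-ON, and 0 to 1 positive and 11 to 17 negative trend differences.

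In SHEP values near 0 changed sign for PSMB5 (-0.00020 to 0.21 without either series), PSMB6 (-0.027 with the covariate, -0.055 to 0.11 without either series) and PSMC2 (0.024 rescaled, 0.086 with the covariate, -0.13 to 0.090 without either series). In SKNAS rescaling turned PSMB5 (0.32), PSMD9 (0.14), PSMD12 (0.20), PSMD7 (0.30), PSMD10 (0.019) and PSMB4 (0.090). The covariate turned PSME1 (-0.026), PSMB7 (-0.14), POMP (-0.091), PSMD12 (0.50), PSMD7 (0.11) and SEM1 (-0.18), and PSMD7 was 0.099 without the low-median libraries. In the interaction PSMB7 (0.077 rescaled), PSMG4 (0.040 rescaled) and PSMG1 (-0.098 with the covariate) turned. Between lines in MYC-ON, PSMB8 (-0.25 with the covariate), POMP (0.060 rescaled), PSMC2 (0.0096 with the covariate) and PSMD10 (0.092 rescaled) turned.

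SHEP series numbers are shared by MYC-OFF and MYC-ON, and the differences between series correlated at 0.489 over 14362 genes. The labels say only that the numbers match. With the replicate block 22 members rose and 7 fell in SHEP, as without it. SKNAS has 1 series, so no block could be fitted there. The depth of each single library is unknown, which limits the reading of low values.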

Other observations

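PSMB9 and TAP1, a transporter that carries peptides into the endoplasmic reticulum, are read from opposite strands of chromosome 6, with RefSeq starts 486 bases apart (GRCh38.p14), and were set side by side after their values were seen. In SHEP both fell in MYC-ON, PSMB9 by 0.67 and TAP1 by 0.54 (SE 0.026, limma adjusted p 6.33e-23). In SKNAS TAP1 fell by 0.74 (SE 0.17, limma adjusted p 0.00259), while PSMB9 gave 0.23 (limma adjusted p 0.0791). The difference between the genes within SKNAS was not tested.

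The SKNAS MYC-OFF library at CT56 held the highest PSMG1 of its condition (433 TPM), with PSMB10 at 165 TPM and PSMG4 at 72.2 TPM. Its library median, 2.97, was the lowest of that condition. At CT52 the values were 225 TPM for PSMG1, 137 TPM for PSMB10 and 99.2 TPM for PSMG4, the last being the highest PSMG4 of the condition.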
